A study of Mus musculus with 14 samples.

Results

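The genes described here are those of glycolysis and of the transcriptional response to low oxygen: 34 gene symbols, chosen by name from the symbol column of the deposited feature tables and matched by 35 of the 55335 features. They comprise 5 carriers of sugars and lactate (Slc2a3, Slc2a5, Slc2a6, Slc16a1 and Slc16a3), 18 enzymes from hexokinase to lactate dehydrogenase, 3 regulators of flux (Pfkfb3, Pdk1 and Pdk3) and 8 genes of the hypoxia response (Hif1a, Epas1, Vegfa, Bnip3, Egln3, Ero1l, Ankrd37 and P4ha1). Aldoa was matched by a second feature as well, which held 11 UMIs (unique molecular identifiers, each counting 1 captured transcript) in all microglia and was not tested. Their expression was measured by droplet single-cell RNA sequencing (10x Genomics, 3′ chemistry) of whole spinal cords from mice aged P115-120 days, a time the series design calls mid-disease. The 14 libraries formed 4 groups. The 3 SOD1G93A libraries came from mice with a mutant human SOD1 transgene (strain B6SJL-Tg(SOD1*G93A)1Gur/J), which develop a motor neuron disease and serve to model amyotrophic lateral sclerosis (ALS). The 4 Clec7a-KO libraries came from mice that lack the myeloid receptor gene Clec7a (strain B6.129S6-Clec7atm1Gdb/J), the 4 SOD1G93A/Clec7a-KO libraries from mice with both alterations, and the 3 nTg libraries from mice with neither, which the series design calls wild type. The labels give no strain background for the nTg and SOD1G93A/Clec7a-KO mice, and the strain names they do give differ in background. The transgene is driven by the human SOD1 promoter in all tissues and the Clec7a deletion is in the germline, so neither is limited to microglia. Libraries are referred to by group and replicate, and all groups shared the same perfusion, warm enzymatic dissociation and bead removal of myelin.

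Glycolysis splits glucose into pyruvate in the cytosol and yields ATP without oxygen, and lactate dehydrogenase with the monocarboxylate carriers disposes of the pyruvate as lactate. Hypoxia-inducible factors (HIF) are transcription factors whose alpha subunits, encoded by Hif1a and Epas1, are degraded when oxygen is ample, after prolyl hydroxylases such as Egln3 mark them. When stable they induce many glycolytic genes, Vegfa and their own hydroxylases, and in myeloid cells inflammatory stimuli can stabilise HIF-1 alpha at normal oxygen, so that activated macrophages and microglia are known for a glycolytic programme.

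The libraries held 108892 barcodes, 28819852 to 141204910 UMIs each, and 90018 cells were kept. Clusters of cells were named from marker genes, and microglia, astrocyte and so on here mean microglia-like, astrocyte-like and so on by those markers. Clusters 10, 15 and 17 stayed unnamed and held 3.86%, 6.07% and 0.498% of cells in nTg, 3.18%, 6.85% and 1.10% in Clec7a-KO, 1.82%, 3.65% and 0.947% in SOD1G93A and 1.23%, 2.83% and 0.768% in SOD1G93A/Clec7a-KO. Cluster 10 matched the microglial markers best, was led by haemoglobin genes and was left out for low depth. Cluster 15 held markers of both endothelial and mural cells. The tested microglia and vascular classes therefore lack these cells, whose shares differed between groups. Pairs of libraries shared 2 to 44 cell barcodes, at most 0.474% of the smaller library. Clec7a in microglia averaged 54.2 ± 29.3 CPM (UMI counts of the class scaled to a total of 1000000; SD, n = 3) in nTg, 1.49 ± 0.739 (n = 4) in Clec7a-KO, 993 ± 82.9 (n = 3) in SOD1G93A and 3.06 ± 0.755 (n = 4) in SOD1G93A/Clec7a-KO. The targeted gene was thus near 0 in both knockout groups. Unless plain CPM is named, CPM values are scaled by TMM, edgeR's normalization between libraries. Microglia per library numbered 951 to 7449, with median depths of 7764 to 10535 UMIs per cell in nTg, 5383 to 11210.0 in Clec7a-KO, 9054 to 22011 in SOD1G93A and 9076 to 12802 in SOD1G93A/Clec7a-KO. The labels number the libraries from 1 to 16, and the SOD1G93A libraries (1, 5 and 6) and the nTg libraries (8, 9 and 12) do not interleave, so the genotype and the order of the numbers cannot be told apart in that comparison. The labels give no sex, and microglia led by Xist, described further on, were spread unevenly between these groups.

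Libraries 13, 15 and 16 (SOD1G93A/Clec7a-KO replicates 3 and 4 and Clec7a-KO replicate 4) had high values of these genes within their groups, and were singled out after those values were seen, so the counts that follow describe the choice and test nothing. In microglia, Clec7a-KO replicate 4 was above the other 3 Clec7a-KO libraries in 18 of 34 members (52.9%), against 36.8% of the 16576 genes tested. SOD1G93A/Clec7a-KO replicates 3 and 4 were both above replicates 1 and 2 in 17 of 34 members, against 31.3% of all genes. Both held for 13 members, among them Gapdh, Ldha, Aldoa, Pkm and Pgk1 (38.2% against 21.8%). In the other classes both held for 13 of 32 members in oligodendrocyte precursors (40.6% against 17.8%), 7 of 33 in astrocytes (21.2% against 7.87%), 6 of 23 in mural cells (26.1% against 13.8%), 8 of 32 in ependymal cells (25.0% against 11.6%) and 7 of 29 in endothelial cells (24.1% against 18.9%). In endothelial cells the SOD1G93A/Clec7a-KO replicates 3 and 4 were above their group in a smaller share of members than of all genes (24.1% against 29.8%). What sets these libraries apart was not tested. Some results that rest on them are given with and without them, and others only with them. Fits without them keep only replicates 1 and 2 of SOD1G93A/Clec7a-KO and replicates 1, 2 and 3 of Clec7a-KO, so a call can be lost with fewer libraries.

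Promoters were searched for ACGTG, a form of the core letters of the element that HIF binds, on both strands (CACGT is its reverse complement, and overlapping matches were counted separately), in 300 bases from 250 before to 50 after each RefSeq transcription start on GRCm38.p6. Other forms of the core were not searched. RefSeq promoters were found for 32 of the 34 symbols (not for Slc2a3 and Epas1; Ero1l was matched as Ero1a). ACGTG occurred in 25 of 46 member promoters (54.3%) and in 19.6% of all 32851 promoters of the table. Counted by gene it was 22 of 32 members (68.8%) and 21.8% of all 27025 genes. Among members that were higher in SOD1G93A than in nTg microglia, 14 of 21 held it, and among those that did not pass the test 8 of 10. The 250 bases upstream of 5 starts are shown because they span the range from 5 matches to none, with each ACGTG or CACGT in capitals. They are from Ldha (chr7:46845554-46845803 on the plus strand, 5 matches; a second Ldha promoter, chr7:46846832-46847081, holds 0 and is not shown), Pgk1 (chrX:106186850-106187099 on the plus strand, 2), Slc16a3 (chr11:120948817-120949066 on the plus strand, 2), Egln3 (chr12:54203875-54204124 on the minus strand, 1) and Slc2a5 (chr4:150119094-150119343 on the plus strand, 0), the sugar carrier that fell in transgenic microglia. A match is a description of the letters and shows no binding. The members were chosen in part as genes of the hypoxia response, and the shares were not matched for GC content, so the higher share among members tests nothing.
Ldha: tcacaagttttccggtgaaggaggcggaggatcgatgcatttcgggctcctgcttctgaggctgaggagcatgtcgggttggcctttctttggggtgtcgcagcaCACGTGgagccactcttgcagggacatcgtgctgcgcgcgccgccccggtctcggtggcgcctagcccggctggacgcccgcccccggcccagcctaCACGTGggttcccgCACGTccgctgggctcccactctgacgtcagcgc
Pgk1: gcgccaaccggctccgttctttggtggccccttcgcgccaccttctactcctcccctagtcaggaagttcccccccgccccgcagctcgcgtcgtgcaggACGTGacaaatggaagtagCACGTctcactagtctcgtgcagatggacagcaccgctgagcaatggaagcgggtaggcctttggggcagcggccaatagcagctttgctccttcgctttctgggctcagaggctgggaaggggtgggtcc
Slc16a3: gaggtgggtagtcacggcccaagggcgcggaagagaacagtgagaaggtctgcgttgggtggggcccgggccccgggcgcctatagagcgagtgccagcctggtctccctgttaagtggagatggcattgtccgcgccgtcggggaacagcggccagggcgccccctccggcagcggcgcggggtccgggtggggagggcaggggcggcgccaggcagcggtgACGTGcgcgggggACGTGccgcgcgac
Egln3: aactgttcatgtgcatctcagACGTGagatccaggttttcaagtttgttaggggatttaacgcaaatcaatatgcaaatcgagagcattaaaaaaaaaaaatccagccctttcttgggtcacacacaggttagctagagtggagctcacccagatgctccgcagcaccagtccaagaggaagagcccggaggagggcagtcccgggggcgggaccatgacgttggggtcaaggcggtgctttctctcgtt
Slc2a5: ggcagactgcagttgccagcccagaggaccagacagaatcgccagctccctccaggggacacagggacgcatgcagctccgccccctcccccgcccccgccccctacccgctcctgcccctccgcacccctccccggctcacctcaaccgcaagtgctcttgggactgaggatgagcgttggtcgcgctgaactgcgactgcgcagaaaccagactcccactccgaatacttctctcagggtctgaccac

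In nTg cords the members were divided among the cell classes. Microglia stood out from the neural and vascular classes compared by a small set of carriers and kinases. Hk2, a hexokinase, averaged 254 ± 82.6 plain CPM (SD, n = 3 libraries, as for the other levels by class) in microglia and 10.6 ± 7.56 in mural cells, the class second to it. Slc2a5, a carrier of fructose, averaged 159 ± 9.82 in microglia and 6.86 ± 5.22 in mural cells. Slc16a3, a lactate carrier of glycolytic cells, stood at 54.7 ± 8.54 and 7.32 ± 0.873 in the same classes, and Hk3 at 45.5 ± 7.54 and 2.28 ± 0.763. Pfkfb3, which makes the activator of phosphofructokinase, was highest in microglia (172 ± 11.9) and next in astrocytes (129.6 ± 13.6). Astrocytes held the highest level of 12 members by mean, and among these the largest step to the next class was in Aldoc, the brain aldolase, at 5029 ± 487 in astrocytes and 496 ± 37.7 in oligodendrocyte precursors. Vegfa, the vascular growth factor, was at 562 ± 69.8 in astrocytes, 312 ± 87.6 in oligodendrocyte precursors and 8.58 ± 3.91 in microglia. Epas1 was at 1322 ± 38.5 in endothelial cells and 829.2 ± 11.95 in mural cells, and Slc16a1, the other lactate carrier, at 391 ± 91.3 in endothelial cells and 109 ± 18.8 in astrocytes. Eno2, the neuronal enolase, was at 255 ± 0.862 in neurons and 21.5 ± 4.37 in astrocytes. For 6 members, among them Pgk1, Ldha and Ero1l, the libraries of the leading class overlapped those of the next. T and NK cells and B cells had too few cells in nTg to be compared. Cluster 17, which held markers of neutrophils and border-associated macrophages, was unnamed and not compared either. These levels therefore do not set microglia apart from other leukocytes. Classes were built from the expression of all genes, so these levels are a description without a test, and reads are counted at 3′ ends, so levels are compared within a gene only.

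**Figure D1:**
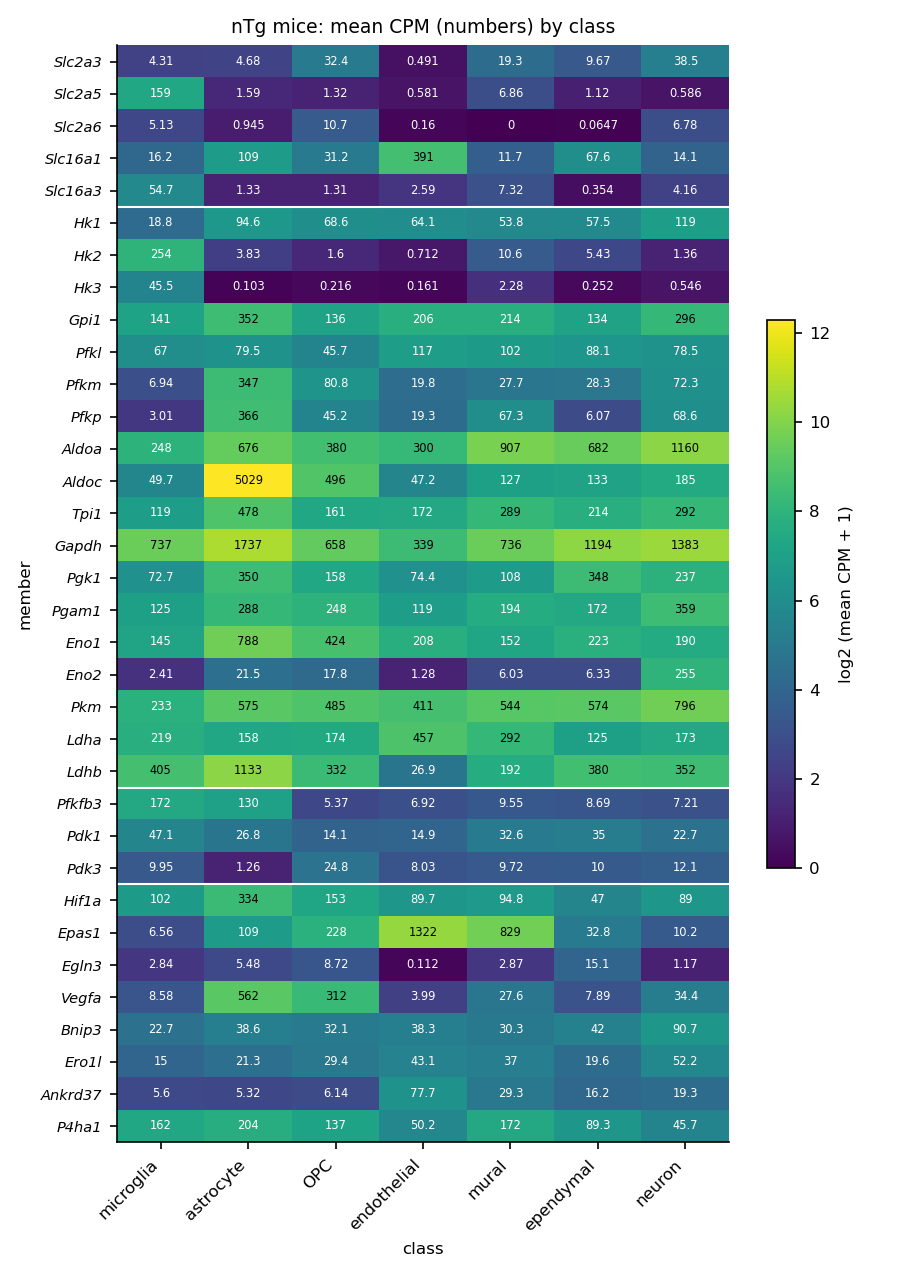
Mean plain CPM of each member (rows, ordered by role) in each class compared (columns) in the 3 nTg libraries, with colour as log2 of the mean plus 1 and the mean printed in each cell. Hk2, Hk3, Slc16a3 and Slc2a5 stand out in microglia, Aldoc and Vegfa in astrocytes, and Epas1 in endothelial and mural cells.

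In microglia, most members were higher in the transgenic mice whether or not Clec7a was present. Between nTg and SOD1G93A, 22 of the 34 members rose, 2 fell (Slc2a5 and Epas1) and 10 did not pass the test, where 20.1% of the 16576 genes tested rose and 13.3% fell (edgeR quasi-likelihood test, Benjamini-Hochberg adjusted p under 0.05). The median log2 change was 1.24 over the members and 0.01 over all genes. The members were chosen with earlier results of these data known, so setting their counts beside all genes, here and below, describes them and tests nothing. In 28 members every library of one group lay above every library of the other, against 54.6% of all genes. Between Clec7a-KO and SOD1G93A/Clec7a-KO, 23 members rose, 3 fell (Slc2a5, Aldoc and Epas1) and 8 did not pass, where 25.9% of genes rose and 21.1% fell, with medians of 1.29 and 0.00. The groups did not overlap in 24 members there, against 37.0% of all genes. Together the members made up 0.369 ± 0.0293% of the microglial UMIs in nTg (SD, n = 3), 0.409 ± 0.102% in Clec7a-KO (n = 4), 0.663 ± 0.107% in SOD1G93A (n = 3) and 0.837 ± 0.166% in SOD1G93A/Clec7a-KO (n = 4).

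Without libraries 13, 15 and 16, 27 members passed between nTg and SOD1G93A (26 higher, 1 lower), where 25.0% of all genes were then higher and 17.6% lower, and 23 between Clec7a-KO and SOD1G93A/Clec7a-KO (21 higher, 2 lower), where 24.7% and 17.8% were. These libraries belong to neither nTg nor SOD1G93A, so the first of these counts compares the same libraries as before. It moved through what all groups share in the fit, such as the estimate of the spread and the count filter. The microglia of the genotypes were spread over different clusters, which are described further on. In clusters 3 and 7 a marker of another class and no microglial marker was among the leading genes, and without them 24 and 26 members passed, where 32.6% and 45.3% of all genes did. Summed markers of border-associated macrophages ran from 5.95 to 7.40 CPM in nTg and 7.49 to 11.05 in Clec7a-KO to 92.4 to 161 in SOD1G93A and 125 to 159 in SOD1G93A/Clec7a-KO, with 5 of 9 markers called higher in SOD1G93A. Those of monocytes and dendritic cells ran from 7.05 to 18.6 and 9.07 to 17.4 to 181 to 247 and 196 to 325 (1 of 8 called higher). In nTg and SOD1G93A microglia the sums were 12.7 to 23.2 against 23.6 to 221 CPM for T and NK cells (2 of 10 called higher), 2.66 to 3.58 against 13.1 to 17.1 for fibroblasts (1 of 7) and 18.8 to 22.3 against 32.0 to 65.5 for oligodendrocyte precursors (1 of 8). They were 16.1 to 25.53 against 35.9 to 69.2 for mural cells (1 of 9) and 62.2 to 107.7 against 158 to 196 for endothelial cells (1 of 10 higher, 2 lower). Other sums were lower by mean in SOD1G93A: 71.6 to 103.7 against 48.0 to 74.0 CPM for oligodendrocytes (6 of 9 called lower), 9.003 to 12.1 against 3.25 to 6.21 for neurons (3 of 10), 143 to 154 against 82.0 to 123 for B cells (1 of 7) and 8.92 to 15.9 against 5.70 to 7.50 for ependymal cells (1 of 8). The microglial markers summed to 18491 to 21594 in nTg and 24845 to 29474 in SOD1G93A, with 3 of 12 called higher and 6 lower. The part of such cells in the results was not tested.

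**Figure D2:**
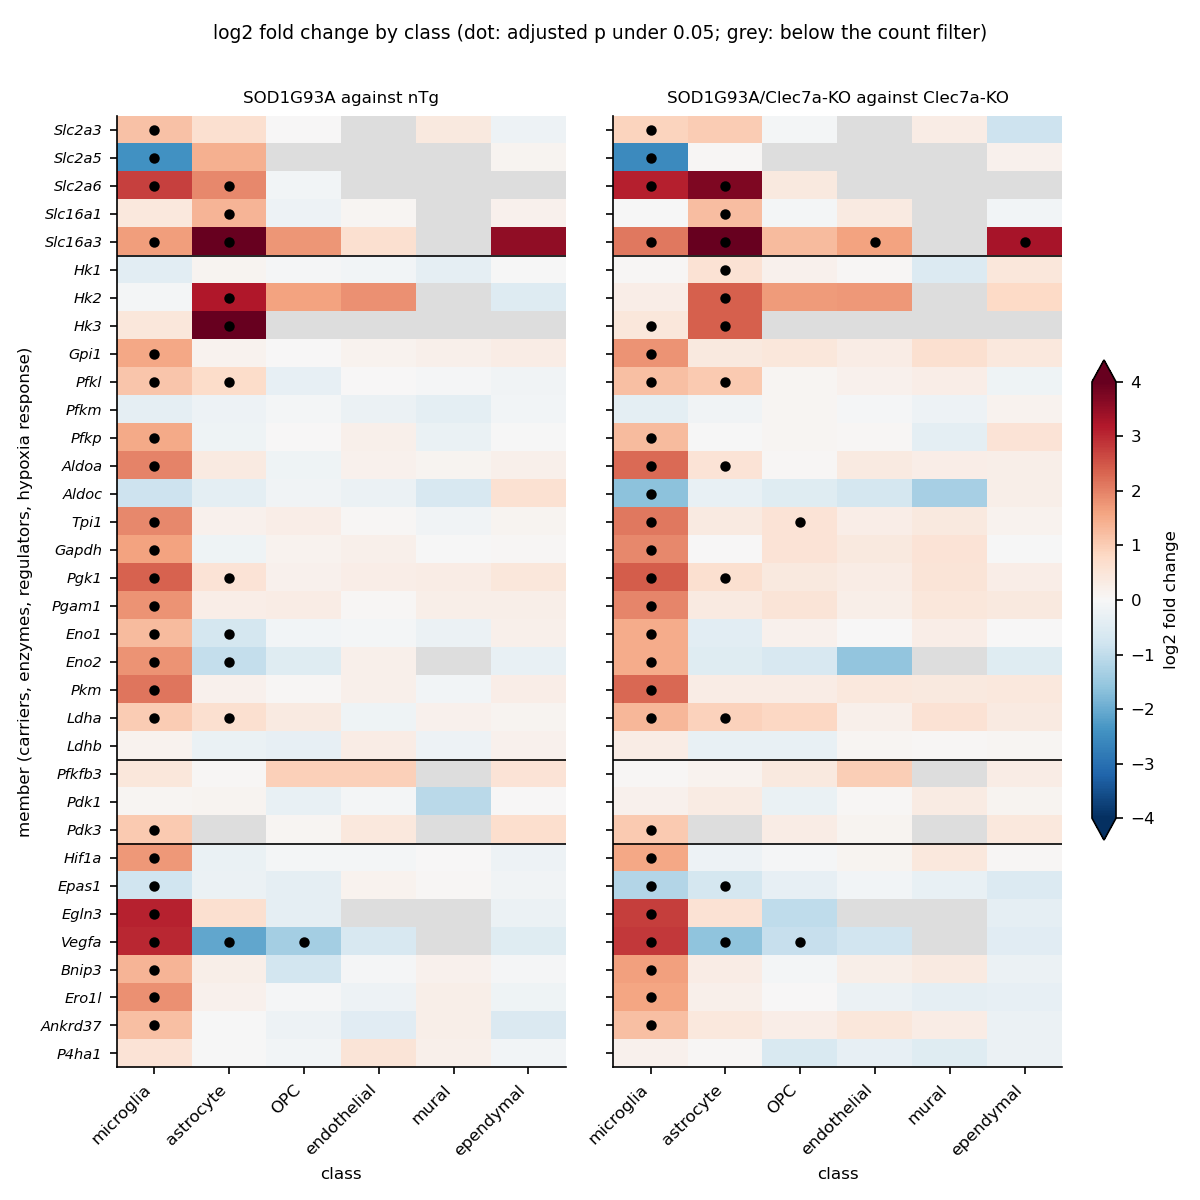
Log2 change of each member (rows, by role) in 6 classes (columns), with 1 panel for each comparison, where dots mark an adjusted p under 0.05 and grey a member below the count filter. Between nTg and SOD1G93A the microglia column holds 22 higher and 2 lower members, and the astrocyte column 8 higher and 3 lower.

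Among the 5 carriers, 3 rose and 1 fell in microglia in the first comparison, and the same counts held in the second. Slc2a5, the fructose carrier, was at 122, 142 and 129 CPM in the nTg libraries and at 22.46, 23.98 and 26.96 in the SOD1G93A libraries. Slc2a5 was at 140.0, 59.7, 77.6 and 129.9 in the Clec7a-KO libraries and at 31.9, 10.1, 13.1 and 13.8 in the SOD1G93A/Clec7a-KO libraries. All transgenic libraries lay below all libraries without the transgene. Slc2a5 fell in both comparisons, with a log2 change of -2.42 ± 0.39 (SE; edgeR adjusted p = 0.000307) between nTg and SOD1G93A and of -2.56 ± 0.34 (SE; edgeR adjusted p = 3.50e-05) between Clec7a-KO and SOD1G93A/Clec7a-KO. Its gene lies at chr4:150119283-150144169 (GENCODE vM21, GRCm38). Slc2a6, a hexose carrier of the same family, moved the other way. Slc2a6 was at 3.00, 4.05 and 5.64 CPM in the nTg libraries and at 27.4, 28.1 and 26.7 in the SOD1G93A libraries. Slc2a6 was at 6.51, 6.15, 2.55 and 5.70 in the Clec7a-KO libraries and at 28.1, 34.4, 67.5 and 51.9 in the SOD1G93A/Clec7a-KO libraries. The transgenic libraries lay above all others, and within them replicates 3 and 4 of SOD1G93A/Clec7a-KO, which belong to the libraries that stand apart, were the highest. Slc2a6 rose in both comparisons, with a log2 change of 2.73 ± 0.36 (SE; edgeR adjusted p = 7.00e-05) between nTg and SOD1G93A and of 3.10 ± 0.31 (SE; edgeR adjusted p = 3.14e-06) between Clec7a-KO and SOD1G93A/Clec7a-KO. The second change was 2.59 without libraries 13, 15 and 16.

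Slc2a3, a high-affinity glucose carrier, was at 4.62, 2.68 and 3.29 CPM in the nTg libraries and at 7.48, 7.83 and 8.66 in the SOD1G93A libraries. Slc2a3 was at 3.34, 5.22, 3.38 and 2.58 in the Clec7a-KO libraries and at 8.99, 7.36, 5.47 and 5.24 in the SOD1G93A/Clec7a-KO libraries. The groups did not overlap, but narrowly in the second comparison, where SOD1G93A/Clec7a-KO replicate 4 was just above Clec7a-KO replicate 2. Slc2a3 rose in both comparisons, with a log2 change of 1.16 ± 0.28 (SE; edgeR adjusted p = 0.00513) between nTg and SOD1G93A and of 0.89 ± 0.24 (SE; edgeR adjusted p = 0.00746) between Clec7a-KO and SOD1G93A/Clec7a-KO. Slc16a3, the lactate carrier, was at 41.9, 39.7 and 53.2 CPM in the nTg libraries and at 174, 138 and 120.1 in the SOD1G93A libraries. Slc16a3 was at 36.6, 42.2, 35.1 and 76.9 in the Clec7a-KO libraries and at 158, 191, 231 and 237 in the SOD1G93A/Clec7a-KO libraries. Clec7a-KO replicate 4 was the highest library without the transgene, and still lay below every transgenic library. Slc16a3 rose in both comparisons, with a log2 change of 1.68 ± 0.28 (SE; edgeR adjusted p = 0.000381) between nTg and SOD1G93A and of 2.10 ± 0.24 (SE; edgeR adjusted p = 1.06e-05) between Clec7a-KO and SOD1G93A/Clec7a-KO. Slc16a1 was at 14.5, 14.1 and 11.4 CPM in nTg and 16.8, 19.2 and 17.2 in SOD1G93A, groups that did not overlap, yet its change of 0.41 ± 0.16 (SE; edgeR adjusted p = 0.0546) did not pass. Of the lactate carriers only Slc16a3 passed, and the difference between them was not tested.

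Of the 18 enzymes, 12 rose and 0 fell between nTg and SOD1G93A, and 13 rose and 1 fell between Clec7a-KO and SOD1G93A/Clec7a-KO. Those that rose in the first comparison included a gene for every step from Gpi1, the isomerase after hexokinase, to Ldha, while no hexokinase passed. Hk2, the hexokinase that was highest in microglia among the classes compared, was at 171, 167 and 289.9 CPM in the nTg libraries and at 196, 189.6 and 214 in the SOD1G93A libraries. Hk2 was at 206, 170.4, 241 and 303 in the Clec7a-KO libraries and at 209.6, 223, 321 and 359 in the SOD1G93A/Clec7a-KO libraries. The groups overlapped, with nTg replicate 3 above every SOD1G93A library. The log2 difference in Hk2 was -0.07 ± 0.26 (SE; edgeR adjusted p = 0.866) between nTg and SOD1G93A and 0.27 ± 0.23 (SE; edgeR adjusted p = 0.341) between Clec7a-KO and SOD1G93A/Clec7a-KO. Hk1 and Hk3 differed by -0.41 ± 0.18 (SE; edgeR adjusted p = 0.0996) and 0.44 ± 0.17 (SE; edgeR adjusted p = 0.0639) in the first comparison and did not pass. Hk3 passed in the second at 0.45 ± 0.15 (SE; edgeR adjusted p = 0.0252), a call that was lost under 7 alternatives. Without libraries 13, 15 and 16 the change was 0.35 (edgeR adjusted p = 0.0767), and the others were leaving out Clec7a-KO replicate 1, 2 or 3 or SOD1G93A/Clec7a-KO replicate 3 or 4, and fitting only the groups compared.

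Gpi1, glucose-6-phosphate isomerase, was at 108, 113 and 126 CPM in the nTg libraries and at 426, 304 and 292 in the SOD1G93A libraries. Gpi1 was at 125, 113, 119 and 225 in the Clec7a-KO libraries and at 362, 480.4, 606 and 588 in the SOD1G93A/Clec7a-KO libraries. Gpi1 rose in both comparisons, with a log2 change of 1.56 ± 0.27 (SE; edgeR adjusted p = 0.000590) between nTg and SOD1G93A and of 1.81 ± 0.24 (SE; edgeR adjusted p = 3.22e-05) between Clec7a-KO and SOD1G93A/Clec7a-KO. The transgenic libraries lay above the rest, with Clec7a-KO replicate 4 the highest of the latter. The 3 phosphofructokinase genes differed: Pfkl, which encodes the liver type, stood at 1.11 ± 0.23 and Pfkp, the platelet type, at 1.505 ± 0.36 (log2 change from nTg to SOD1G93A ± SE), and both passed, while Pfkm, the muscle type, at -0.36 ± 0.26 did not. Differences among them were not tested. Aldoa, the aldolase of most tissues, was at 192, 196 and 224 CPM in the nTg libraries and at 918, 745 and 756 in the SOD1G93A libraries. Aldoa was at 198, 199.6, 180.1 and 357 in the Clec7a-KO libraries and at 803, 1037, 1389 and 1288 in the SOD1G93A/Clec7a-KO libraries. Aldoa rose in both comparisons, with a log2 change of 1.98 ± 0.27 (SE; edgeR adjusted p = 7.83e-05) between nTg and SOD1G93A and of 2.27 ± 0.23 (SE; edgeR adjusted p = 3.73e-06) between Clec7a-KO and SOD1G93A/Clec7a-KO. The transgenic libraries lay above the rest without overlap. Aldoc averaged 40.7 CPM in nTg and 22.9 in SOD1G93A, with overlap and no call (-0.83 ± 0.52 SE, edgeR adjusted p = 0.230). It fell in the second comparison (-1.65 ± 0.46 SE, edgeR adjusted p = 0.00854), where Clec7a-KO replicate 1 was the highest library at 100.2 CPM, and without libraries 13, 15 and 16 the change was -1.42 and did not pass (edgeR adjusted p = 0.0600). Summed astrocyte markers in microglia were 157 to 205, 158 to 338, 119.5 to 167 and 88.7 to 170.1 CPM in nTg, Clec7a-KO, SOD1G93A and SOD1G93A/Clec7a-KO, and their part in the Aldoc result was not tested.

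Tpi1, triosephosphate isomerase, was at 93.7, 93.8 and 105 CPM in the nTg libraries and at 408, 378 and 332 in the SOD1G93A libraries. Tpi1 was at 105, 101, 80.1 and 132 in the Clec7a-KO libraries and at 424, 487, 453 and 459 in the SOD1G93A/Clec7a-KO libraries. Tpi1 rose in both comparisons, with a log2 change of 1.93 ± 0.17 (SE; edgeR adjusted p = 2.15e-06) between nTg and SOD1G93A and of 2.12 ± 0.15 (SE; edgeR adjusted p = 1.39e-07) between Clec7a-KO and SOD1G93A/Clec7a-KO. Every transgenic library lay above every library without the transgene. Gapdh, the dehydrogenase often used as a reference gene, was at 529, 582 and 707 CPM in the nTg libraries and at 2207, 1751 and 1635 in the SOD1G93A libraries. Gapdh was at 599, 675, 595 and 1613 in the Clec7a-KO libraries and at 1971, 2193, 4487 and 4445 in the SOD1G93A/Clec7a-KO libraries. Gapdh rose in both comparisons, with a log2 change of 1.62 ± 0.41 (SE; edgeR adjusted p = 0.00710) between nTg and SOD1G93A and of 1.91 ± 0.35 (SE; edgeR adjusted p = 0.000572) between Clec7a-KO and SOD1G93A/Clec7a-KO. Within the second comparison the libraries that stand apart carried much of the range: Clec7a-KO replicate 4 lay above its group, and SOD1G93A/Clec7a-KO replicates 3 and 4 above theirs. The change was 1.75 without libraries 13, 15 and 16 (edgeR adjusted p = 1.75e-05).

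Pgk1, phosphoglycerate kinase, had the largest change of the enzymes (its gene lies at chrX:106187100-106203699; its promoter, shown above, holds 2 matches to ACGTG). Pgk1 was at 56.9, 52.95 and 69.3 CPM in the nTg libraries and at 333, 307 and 270.4 in the SOD1G93A libraries. Pgk1 was at 63.8, 61.5, 45.97 and 105 in the Clec7a-KO libraries and at 319, 334, 417 and 421 in the SOD1G93A/Clec7a-KO libraries. Pgk1 rose in both comparisons, with a log2 change of 2.34 ± 0.25 (SE; edgeR adjusted p = 1.06e-05) between nTg and SOD1G93A and of 2.44 ± 0.22 (SE; edgeR adjusted p = 1.12e-06) between Clec7a-KO and SOD1G93A/Clec7a-KO. Pgam1, phosphoglycerate mutase, was at 85.2, 107 and 114.8 CPM in the nTg libraries and at 411, 359 and 307 in the SOD1G93A libraries. Pgam1 was at 106, 108, 80.3 and 148 in the Clec7a-KO libraries and at 378, 423, 464 and 436 in the SOD1G93A/Clec7a-KO libraries. Pgam1 rose in both comparisons, with a log2 change of 1.81 ± 0.21 (SE; edgeR adjusted p = 2.06e-05) between nTg and SOD1G93A and of 1.94 ± 0.18 (SE; edgeR adjusted p = 1.59e-06) between Clec7a-KO and SOD1G93A/Clec7a-KO. Neither gene showed overlap between mice with and without the transgene. Of the enolases, Eno1, the widespread form, rose by 1.28 ± 0.34 (SE; edgeR adjusted p = 0.0106) and 1.496 ± 0.30 (SE; edgeR adjusted p = 0.00102) in the respective comparisons, on the log2 scale, and the first call was lost without SOD1G93A replicate 1 (edgeR adjusted p = 0.0527). Eno2, the form known from neurons, was at 2.31, 1.74 and 1.88 CPM in the nTg libraries and at 4.80, 11.9 and 3.92 in the SOD1G93A libraries. Eno2 was at 3.16, 2.11, 1.53 and 2.42 in the Clec7a-KO libraries and at 4.54, 4.95, 7.44 and 9.55 in the SOD1G93A/Clec7a-KO libraries. Eno2 rose in both comparisons, with a log2 change of 1.79 ± 0.42 (SE; edgeR adjusted p = 0.00458) between nTg and SOD1G93A and of 1.49 ± 0.36 (SE; edgeR adjusted p = 0.00364) between Clec7a-KO and SOD1G93A/Clec7a-KO. SOD1G93A replicate 2 was the highest library in Eno2. Its call between Clec7a-KO and SOD1G93A/Clec7a-KO was lost without libraries 13, 15 and 16, with a change of 1.04 (edgeR adjusted p = 0.0674).

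Pkm, pyruvate kinase, was at 191, 177 and 208 CPM in the nTg libraries and at 1050.1, 768 and 708 in the SOD1G93A libraries. Pkm was at 204, 188, 174 and 398 in the Clec7a-KO libraries and at 892, 1131, 1361 and 1356 in the SOD1G93A/Clec7a-KO libraries. Pkm rose in both comparisons, with a log2 change of 2.14 ± 0.30 (SE; edgeR adjusted p = 0.000105) between nTg and SOD1G93A and of 2.30 ± 0.26 (SE; edgeR adjusted p = 8.65e-06) between Clec7a-KO and SOD1G93A/Clec7a-KO. Clec7a-KO replicate 4 lay above its group and below every transgenic library. Ldha, the lactate dehydrogenase subunit that favours lactate, 1 of whose 2 RefSeq promoters, shown above, holds 5 matches to ACGTG and the other 0, was at 161, 202 and 176 CPM in the nTg libraries and at 389, 379.9 and 332 in the SOD1G93A libraries. Ldha was at 174, 188, 191 and 414 in the Clec7a-KO libraries and at 411, 464, 731 and 798 in the SOD1G93A/Clec7a-KO libraries. In the second comparison the groups met, with Clec7a-KO replicate 4 above SOD1G93A/Clec7a-KO replicate 1. Ldha rose in both comparisons, with a log2 change of 1.03 ± 0.32 (SE; edgeR adjusted p = 0.0233) between nTg and SOD1G93A and of 1.31 ± 0.28 (SE; edgeR adjusted p = 0.00159) between Clec7a-KO and SOD1G93A/Clec7a-KO. Without libraries 13, 15 and 16 the changes in Ldha were 1.04 and 1.25, both called. Its call between nTg and SOD1G93A was lost without either of nTg replicates 1 and 3 or SOD1G93A replicates 1 and 2 in turn (highest edgeR adjusted p over the alternatives = 0.0775). Ldhb, the other subunit, did not pass in either comparison, at 0.14 ± 0.24 (SE; edgeR adjusted p = 0.676) and 0.31 ± 0.21 (SE; edgeR adjusted p = 0.236).

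Of the 3 regulators, Pdk3, a kinase that switches off pyruvate dehydrogenase, was the 1 that passed. Pdk3 was at 8.55, 8.20 and 7.75 CPM in the nTg libraries and at 15.96, 16.8 and 17.7 in the SOD1G93A libraries. Pdk3 was at 8.74, 8.58, 8.68 and 9.45 in the Clec7a-KO libraries and at 16.6, 19.01, 18.8 and 18.01 in the SOD1G93A/Clec7a-KO libraries. Pdk3 rose in both comparisons, with a log2 change of 1.04 ± 0.12 (SE; edgeR adjusted p = 1.73e-05) between nTg and SOD1G93A and of 1.03 ± 0.10 (SE; edgeR adjusted p = 2.67e-06) between Clec7a-KO and SOD1G93A/Clec7a-KO. Every transgenic library lay above every other, with little spread within groups. Pdk1, the kinase known as a HIF target, was at 36.8, 37.4 and 41.96 in nTg and 43.8, 37.8 and 40.6 in SOD1G93A CPM, and the log2 difference of 0.07 ± 0.12 (SE; edgeR adjusted p = 0.668) did not pass. Pfkfb3 averaged 142 in nTg and 192 in SOD1G93A, groups that did not overlap, and missed the threshold (0.44 ± 0.17 SE, edgeR adjusted p = 0.0648). In the second comparison its groups overlapped (0.06 ± 0.15 SE, edgeR adjusted p = 0.767).

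Among the 8 genes of the hypoxia response, 6 rose and 1 fell in each comparison with the transgene. Hif1a, which encodes the alpha subunit of HIF-1, was at 87.4, 73.1 and 90.03 CPM in the nTg libraries and at 237, 311 and 281 in the SOD1G93A libraries. Hif1a was at 84.9, 89.5, 72.7 and 77.4 in the Clec7a-KO libraries and at 256, 224, 228 and 240.3 in the SOD1G93A/Clec7a-KO libraries. All transgenic libraries were at 224 CPM or more and all others at 90.03 or less. Hif1a rose in both comparisons, with a log2 change of 1.73 ± 0.15 (SE; edgeR adjusted p = 1.45e-06) between nTg and SOD1G93A and of 1.55 ± 0.13 (SE; edgeR adjusted p = 4.68e-07) between Clec7a-KO and SOD1G93A/Clec7a-KO. Its protein, which is regulated after translation, was not measured here. Epas1, the HIF-2 alpha gene, was at 5.59, 5.47 and 5.09 CPM in nTg and 3.86, 2.68 and 2.76 in SOD1G93A. It fell (-0.80 ± 0.30 SE, edgeR adjusted p = 0.0496), a call close to the threshold that was lost under 11 of the alternatives, and it fell by 1.17 ± 0.26 (SE; edgeR adjusted p = 0.00220) between Clec7a-KO and SOD1G93A/Clec7a-KO.

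Vegfa, the vascular growth factor, and Egln3, the prolyl hydroxylase, showed the steepest rises of the list between nTg and SOD1G93A. Vegfa was at 7.09, 3.79 and 10.3 CPM in the nTg libraries and at 47.03, 77.8 and 45.4 in the SOD1G93A libraries. Vegfa was at 6.15, 5.76, 4.60 and 4.61 in the Clec7a-KO libraries and at 39.7, 36.3, 32.9 and 42.8 in the SOD1G93A/Clec7a-KO libraries. The lowest transgenic library was at 32.9 CPM and the highest other at 10.3. Vegfa rose in both comparisons, with a log2 change of 3.03 ± 0.30 (SE; edgeR adjusted p = 5.05e-06) between nTg and SOD1G93A and of 2.83 ± 0.26 (SE; edgeR adjusted p = 1.33e-06) between Clec7a-KO and SOD1G93A/Clec7a-KO. The Vegfa gene lies at chr17:46016993-46032369. Egln3 was at 2.37, 1.26 and 3.37 CPM in the nTg libraries and at 22.2, 20.2 and 16.3 in the SOD1G93A libraries. Egln3 was at 2.72, 4.97, 2.17 and 4.92 in the Clec7a-KO libraries and at 24.005, 28.4, 22.1 and 24.8 in the SOD1G93A/Clec7a-KO libraries. Again the transgenic libraries lay above all others. Egln3 rose in both comparisons, with a log2 change of 3.09 ± 0.33 (SE; edgeR adjusted p = 1.06e-05) between nTg and SOD1G93A and of 2.75 ± 0.28 (SE; edgeR adjusted p = 3.23e-06) between Clec7a-KO and SOD1G93A/Clec7a-KO. The Egln3 promoter shown above has a single match to ACGTG.

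Ero1l, an oxidase that forms disulfide bonds in the endoplasmic reticulum, was at 11.6, 11.2 and 14.2 CPM in the nTg libraries and at 35.4, 52.99 and 43.5 in the SOD1G93A libraries. Ero1l was at 11.9, 15.1, 11.3 and 14.4 in the Clec7a-KO libraries and at 38.9, 32.3, 42.8 and 43.4 in the SOD1G93A/Clec7a-KO libraries. Ero1l rose in both comparisons, with a log2 change of 1.83 ± 0.18 (SE; edgeR adjusted p = 5.05e-06) between nTg and SOD1G93A and of 1.58 ± 0.16 (SE; edgeR adjusted p = 2.71e-06) between Clec7a-KO and SOD1G93A/Clec7a-KO. No transgenic library overlapped the others. Bnip3, a receptor for the removal of mitochondria by autophagy, rose by 1.37 ± 0.30 (SE; edgeR adjusted p = 0.00335) and 1.63 ± 0.27 (SE; edgeR adjusted p = 0.000201) in the respective comparisons. Ankrd37, a gene known for its induction by HIF, rose by 1.20 ± 0.20 (SE; edgeR adjusted p = 0.000489) and 1.19 ± 0.18 (SE; edgeR adjusted p = 9.04e-05). P4ha1, a collagen prolyl hydroxylase, did not pass in either, at 0.53 ± 0.21 (SE; edgeR adjusted p = 0.0680) and 0.16 ± 0.18 (SE; edgeR adjusted p = 0.498), although its nTg and SOD1G93A libraries did not overlap.

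**Figure D3:**
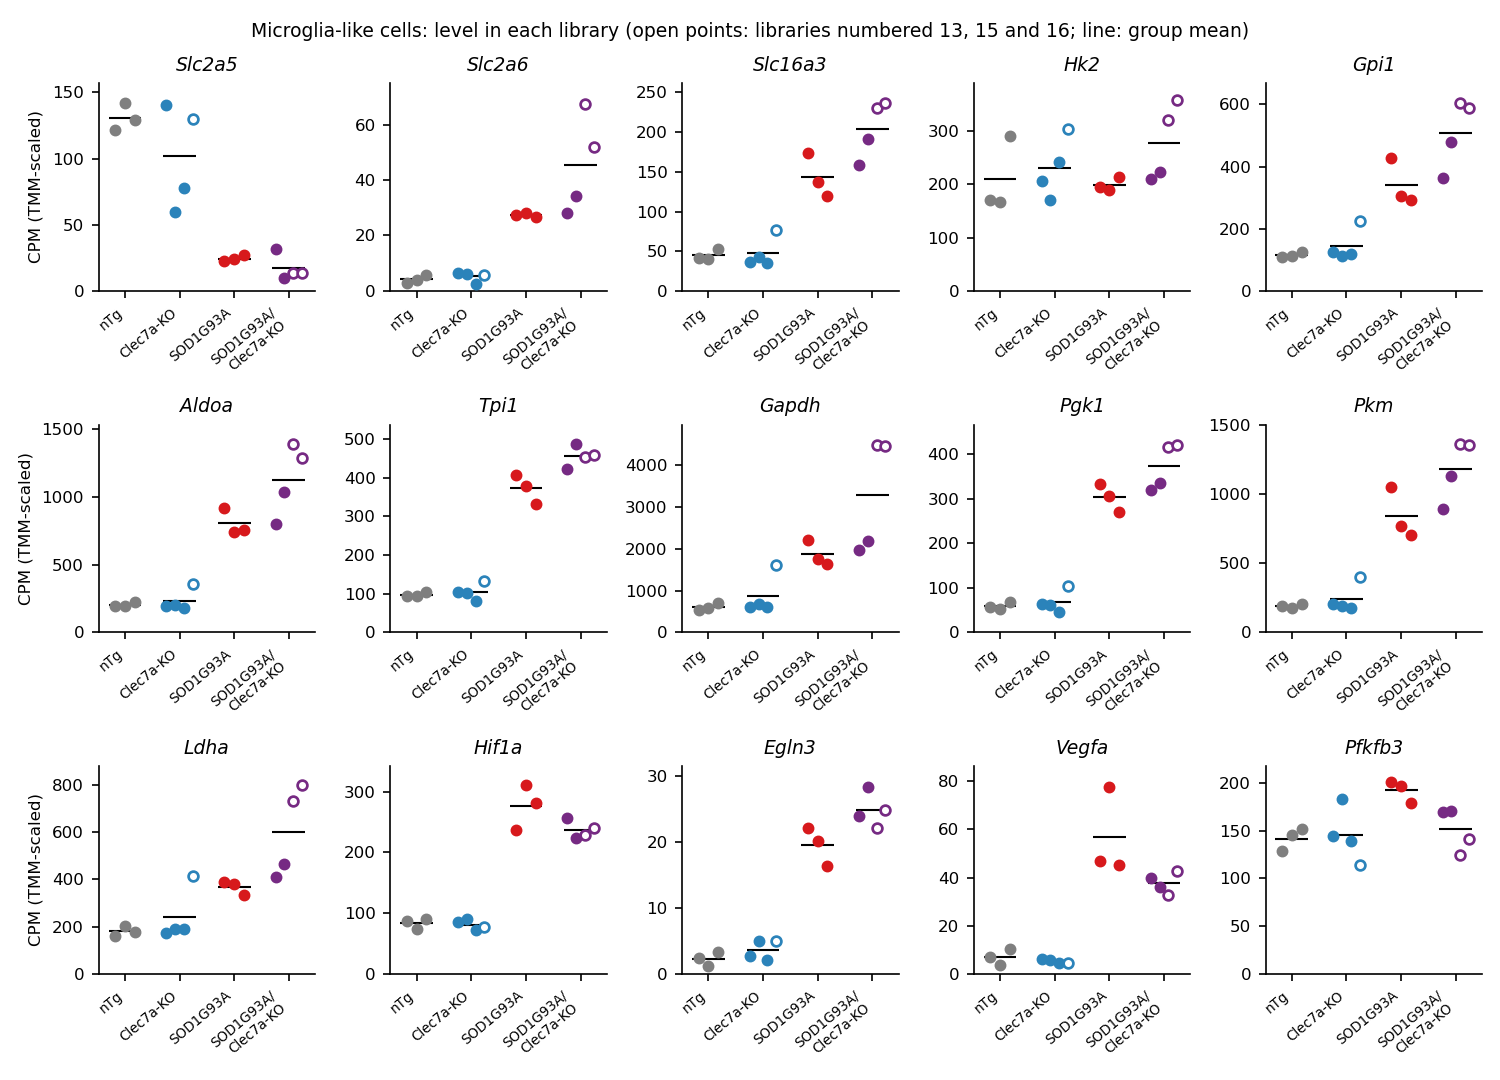
CPM of selected members in the microglia of each library (points), by group, with the group mean as a line and libraries 13, 15 and 16 as open points. Vegfa, Egln3, Pgk1 and Hif1a separate transgenic libraries from the others, Slc2a5 lies lower in them, and the open points lie high in Gapdh and Ldha.

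The design asks what loss of Clec7a does in the transgenic mice, and no member passed that test in microglia. Between SOD1G93A and SOD1G93A/Clec7a-KO, 0 of 34 members passed (edgeR), where 0.0181% of all genes did. At an unadjusted p under 0.05 there were 6 members (11.4% of all genes). The log2 differences of the members ran from -0.58 to 0.81, with a median of 0.22 against 0.01 over all genes. In 6 members the groups did not overlap, against 9.16% of all genes. The ends of the range were Vegfa (-0.58 ± 0.25 SE, edgeR adjusted p = 0.432) and Gapdh (0.81 ± 0.38 SE, edgeR adjusted p = 0.435). Vegfa was lower in all 4 SOD1G93A/Clec7a-KO libraries than in the 3 SOD1G93A libraries. For Gapdh, the SOD1G93A/Clec7a-KO replicates 1 and 2 lay within the SOD1G93A range and replicates 3 and 4 above it. Without libraries 13, 15 and 16, with SOD1G93A/Clec7a-KO replicates 1 and 2 alone left in that group, no member passed either, where 0.0234% of all genes did. Between nTg and Clec7a-KO 0 of 34 passed as well (with 0.0302% of all genes called; 1 member and 2.53% of all genes at an unadjusted p under 0.05), with differences of -0.39 to 0.68. The test of whether the transgene's change differs with Clec7a called 0 members and 0.0% of all genes (0 members and 1.97% of all genes at an unadjusted p under 0.05), and the estimates ran from -0.82 to 0.45. DESeq2 called 0 members in each of these comparisons. With 3 or 4 libraries a group, differences of the size seen in Gapdh could not be told from the spread between libraries, and a missed threshold does not show that levels were equal.

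Within microglia, 9 clusters held different shares in each genotype. Without the transgene most microglia lay in clusters 4 and 9, which the libraries of a group shared very unevenly. Cluster 4 made up 22.1 to 94.9% of the microglia of the nTg libraries and 22.8 to 93.5% of those of the Clec7a-KO libraries. Cluster 9 made up 1.49 to 73.8% and 0.0461 to 74.0%, with 1790, 29 and 676 cells in the nTg libraries and 11, 20, 942 and 1 in the Clec7a-KO libraries, so it came from nTg replicates 1 and 3 and Clec7a-KO replicate 3 almost alone. Clusters 2, 6 and 1 made up 30.9 ± 13.7%, 27.8 ± 17.7% and 14.96 ± 2.25% in SOD1G93A (SD, n = 3) and 34.6 ± 9.002%, 18.6 ± 18.1% and 11.8 ± 1.80% in SOD1G93A/Clec7a-KO (SD, n = 4). Clusters 3 and 7 made up 8.17 ± 4.69% and 2.95 ± 0.326% in SOD1G93A and 16.3 ± 9.51% and 5.58 ± 1.31% in SOD1G93A/Clec7a-KO. The libraries of these groups overlapped in cluster 3 and not in cluster 7, and shares were not tested. Some members varied widely among clusters. In SOD1G93A, Vegfa averaged 88.1 ± 20.2 (SD, n = 3) CPM in cluster 1, which is led by genes such as Mmp12, Spp1 and Gpnmb, and 68.96 ± 24.98 (SD, n = 3) in cluster 6, led by the inflammatory genes Il12b, Ptgs2 and Il1b. In cluster 4, led by Crybb1, P2ry12, the member Slc2a5 and Tmem119, it was at 2.33 ± 1.45 (SD, n = 3). Slc2a5, itself among the genes that define cluster 4, showed the reverse order, at 4.33 ± 0.267 (SD, n = 3), 17.4 ± 5.80 (SD, n = 3) and 126 ± 21.2 (SD, n = 3) in the same clusters. Pgk1 was at 356 ± 75.7 (SD, n = 3) in cluster 1 and 99.9 ± 17.6 (SD, n = 3) in cluster 4. Hk2, by comparison, was at 175 ± 17.9 (SD, n = 3) and 205 ± 22.4 (SD, n = 3). These values are plain CPM. Cluster 9 was led by Tsix and Xist, genes of X inactivation, besides the genes that lead cluster 4, and the labels give no sex for the mice. The SOD1G93A libraries held 3, 0 and 2 cells of cluster 9, beside 629, 108 and 93 of cluster 4. So nTg and SOD1G93A may differ in sex as well as in genotype, which the labels do not settle. A covariate marked each library by whether its kept cells held more UMIs of Xist than of Ddx3y, a gene of the Y chromosome. Its value per library is not given here. With this Xist covariate, the microglial calls of Ldha and Epas1 between nTg and SOD1G93A were lost (edgeR adjusted p = 0.0637 and 0.0511). The other classes were not fitted with it.

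Cluster 4 held 4.94 ± 4.71% of SOD1G93A (SD, n = 3) and 4.26 ± 2.74% of SOD1G93A/Clec7a-KO microglia (SD, n = 4), so its levels can be set side by side across genotypes. The clusters were built from all genes, these included, and no test is given. Vegfa in cluster 4 was at 4.76 ± 2.57 (SD, n = 3) CPM in nTg and 2.33 ± 1.45 (SD, n = 3) in SOD1G93A. Slc2a5 stood at 168 ± 7.64 (SD, n = 3) and 126 ± 21.2 (SD, n = 3), and Hif1a at 94.3 ± 8.06 (SD, n = 3) and 133 ± 17.6 (SD, n = 3). Pgk1 was at 66.9 ± 6.79 (SD, n = 3) and 99.9 ± 17.6 (SD, n = 3) and Pkm at 211 ± 15.4 (SD, n = 3) and 339 ± 113 (SD, n = 3). So by mean Vegfa in cluster 4 was no higher in SOD1G93A than in nTg, while Pgk1, Pkm and Hif1a were higher and Slc2a5 lower. The SOD1G93A levels rest on 629, 108 and 93 cells, and low values such as that of Vegfa carry counting error. In cluster 2, which held 1.90% of nTg microglia, Vegfa was at 28.5 ± 20.4 (SD, n = 3) in nTg and 18.9 ± 0.986 (SD, n = 3) in SOD1G93A, and Pgk1 at 154 ± 36.9 (SD, n = 3) and 184 ± 41.5 (SD, n = 3). The nTg values there rest on only 36, 37 and 22 cells.

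**Figure D4:**
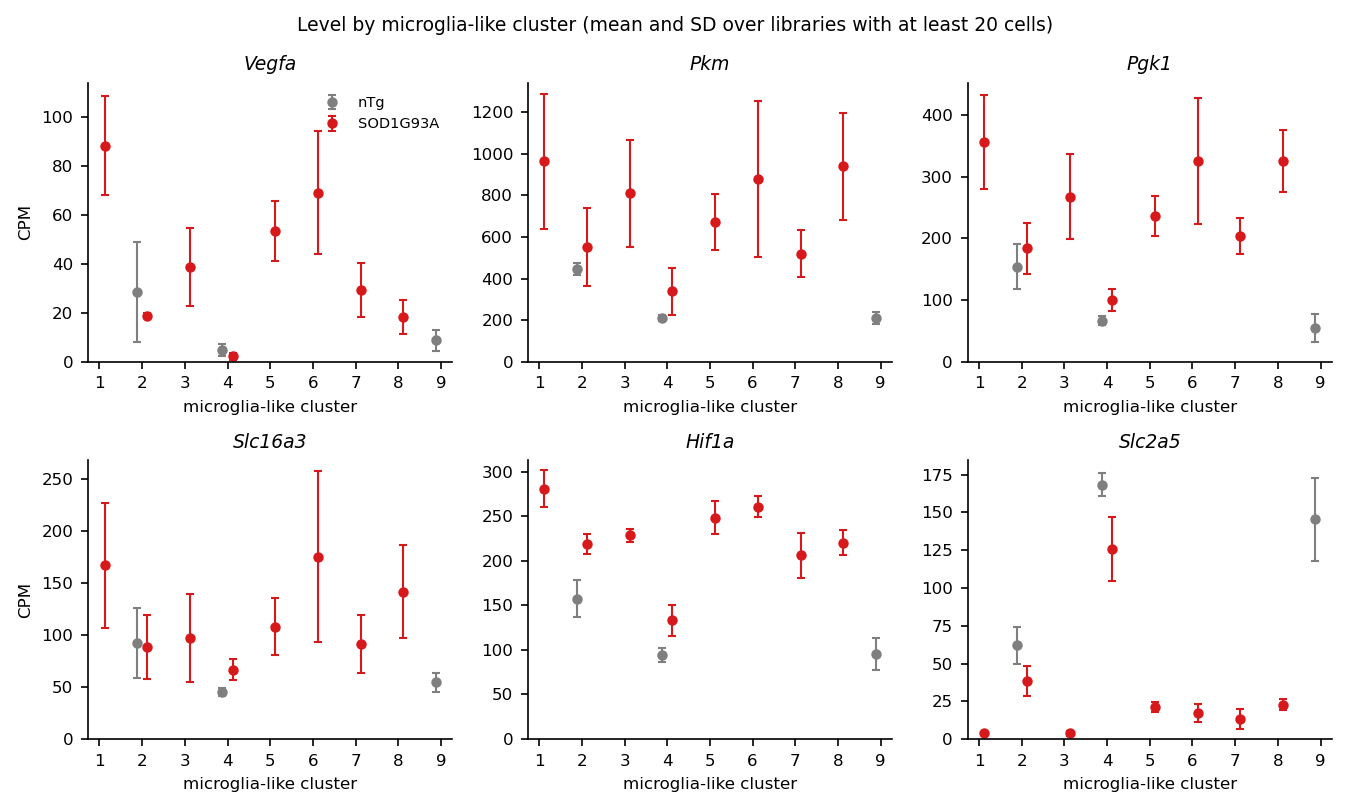
Mean plain CPM of selected members by microglial cluster (x axis) and genotype (colour), with SD over libraries that hold at least 20 cells of the cluster. In SOD1G93A, Vegfa is highest in clusters 1 and 6 and lowest in cluster 4, and Slc2a5 is highest in cluster 4.

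Other genes of glycolysis, its branches and the hypoxia response passed in microglia about as often as all genes did. Of all genes 33.4% passed in either direction in the first comparison and 47.0% in the second. Of 60 listed, 49 passed the count filter, and 13 rose and 3 fell between nTg and SOD1G93A (median log2 change 0.23), and 16 rose and 7 fell between Clec7a-KO and SOD1G93A/Clec7a-KO (median 0.29). Over all genes 20.1% rose and 13.3% fell in the first and 25.9% and 21.1% in the second, with medians of 0.01 and 0.00, and this list was not tested against the members. In the first comparison the largest rises were in Lox, a collagen crosslinking enzyme (4.84 ± 0.53, log2 ± SE), Tigar, which lowers the activator of phosphofructokinase (2.07 ± 0.21), Mif, a cytokine (1.95 ± 0.21), and Car9, a carbonic anhydrase (1.88 ± 0.36). The falls were in Ddit4, a stress-induced inhibitor of mTOR signalling (-1.64 ± 0.45), Eno3, the muscle enolase (-0.83 ± 0.22), and Pdp2, a phosphatase that activates pyruvate dehydrogenase (-0.64 ± 0.17). In the second comparison Lox (4.48 ± 0.46), Car9 (2.71 ± 0.32), Mif (2.50 ± 0.18) and Tigar (2.13 ± 0.18) led the rises, and Ddit4 (-1.56 ± 0.39), Plod2 (-1.12 ± 0.42), Eno3 (-0.86 ± 0.19) and Pfkfb2 (-0.77 ± 0.22) the falls. Beside the members, 22 immediate early and heat shock genes known to respond to tissue dissociation were read. In microglia 0 rose and 9 fell in the first comparison (median -0.63) and 0 rose and 13 fell in the second (median -0.91), where 13.3% and 21.1% of all genes fell, for example Klf2 (-2.34 ± 0.35 and -2.43 ± 0.30), Hspa1b (-1.49 ± 0.55 and -3.78 ± 0.52) and Hspa1a (-1.45 ± 0.42 and -3.08 ± 0.39). Their part in the members' changes was not tested.

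In astrocytes the members passed about as often as all genes, of which 34.4% passed in either direction in the first comparison and 31.4% in the second. Vegfa, which rose in microglia, had the largest fall of the members in astrocytes. Between nTg and SOD1G93A, 8 of 33 members tested rose, 3 fell (Vegfa, Eno1 and Eno2) and 22 did not pass, where 18.7% of 13043 genes rose and 15.7% fell, with medians of 0.16 and -0.01. Between Clec7a-KO and SOD1G93A/Clec7a-KO, 10 rose and 2 fell (Vegfa and Epas1), where 16.9% of genes rose and 14.5% fell, with medians of 0.32 and -0.03. Without libraries 13, 15 and 16 the counts were 11 and 16, where 38.4% and 31.8% of all genes then passed in either direction. The first count was 6 without nTg replicate 1 and 7 without nTg replicate 2 or SOD1G93A replicate 2. No member passed for loss of Clec7a with the transgene (1 at an unadjusted p under 0.05) or without it (3), or for the interaction (0), in edgeR or DESeq2, where 0.00767%, 0.0% and 0.0% of genes passed and 4.45%, 3.73% and 2.41% were at an unadjusted p under 0.05. Astrocytes numbered 35 to 1148 per library, with 35 in SOD1G93A/Clec7a-KO replicate 4. Their median UMIs per cell were 5148 to 6331 in nTg, 2807 to 6716 in Clec7a-KO, 2999 to 5184.5 in SOD1G93A and 2364.5 to 3791 in SOD1G93A/Clec7a-KO. Median mitochondrial shares were 9.05 to 10.06%, 8.05 to 10.81%, 7.11 to 8.82% and 3.93 to 7.96% in the same order. The part of depth and cell quality in the astrocyte changes was not tested.

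Vegfa was at 486, 612 and 569 CPM in the nTg libraries and at 127, 141 and 125 in the SOD1G93A libraries. Vegfa was at 473, 532, 597 and 603 in the Clec7a-KO libraries and at 154, 76.5, 235 and 300.4 in the SOD1G93A/Clec7a-KO libraries. Every transgenic library lay below every other, and in SOD1G93A/Clec7a-KO the libraries that stand apart were the highest. Astrocyte Vegfa fell by 2.09 ± 0.32 (SE; edgeR adjusted p = 0.000168) and by 1.61 ± 0.28 (SE; edgeR adjusted p = 0.000517) on the log2 scale. Slc16a1 was at 87.7, 115.3 and 122 CPM in the nTg libraries and at 181, 379.9 and 272 in the SOD1G93A libraries. Slc16a1 was at 105, 105, 104 and 76.5 in the Clec7a-KO libraries and at 219, 271, 196 and 242 in the SOD1G93A/Clec7a-KO libraries. The lowest transgenic library lay above the highest other, and the changes were 1.36 ± 0.24 (SE; edgeR adjusted p = 0.000436) and 1.23 ± 0.21 (SE; edgeR adjusted p = 0.000440). Eno1 was at 779, 808 and 753 CPM in the nTg libraries and at 581, 426 and 435 in the SOD1G93A libraries. Eno1 was at 740.2, 801, 701 and 1307 in the Clec7a-KO libraries and at 471, 551, 774 and 882 in the SOD1G93A/Clec7a-KO libraries. Eno1 fell between nTg and SOD1G93A (-0.70 ± 0.26 SE, edgeR adjusted p = 0.0493), close to the threshold, as did Eno2 (-0.95 ± 0.32 SE, edgeR adjusted p = 0.0292), and neither passed in the other comparison (-0.42 ± 0.23 (SE; edgeR adjusted p = 0.178) and -0.48 ± 0.31 (SE; edgeR adjusted p = 0.257)). Eno2 was at 26.1, 20.2 and 17.5 CPM in nTg and 15.2, 10.6 and 8.35 in SOD1G93A. The Eno1 call was lost under 11 alternatives and the Eno2 call under 5. Pfkl was at 79.3, 77.9 and 79.001 in nTg, 59.9, 79.6, 70.2 and 87.8 in Clec7a-KO, 136, 141 and 115.4 in SOD1G93A and 117, 165, 141 and 222 in SOD1G93A/Clec7a-KO. Ldha was at 142, 164 and 162, 150.4, 140.1, 159.9 and 222, 264, 238 and 235 and 267, 323, 309.7 and 372 in the same order of groups, and Pgk1 at 311, 384 and 343, 333, 369, 329 and 403, 457, 559 and 489 and 440.0, 581, 549.7 and 673. Pfkl, Ldha and Pgk1 rose in both comparisons, by log2 changes of 0.73, 0.65 and 0.53 in the first and by 1.058, 0.91 and 0.63 in the second. In the first comparison the Pgk1 call was lost under 9 alternatives: no count filter and leaving out any 1 of the nTg replicates, SOD1G93A replicates 2 and 3 and Clec7a-KO replicates 1, 2 and 3 (highest edgeR adjusted p = 0.151). The Ldha call was lost without nTg replicate 1 (edgeR adjusted p = 0.0654). Hk1 (0.58 ± 0.17 SE, edgeR adjusted p = 0.0179), Aldoa (0.55 ± 0.17 SE, edgeR adjusted p = 0.0196) and Epas1 (-0.71 ± 0.18 SE, edgeR adjusted p = 0.00609) passed in the second comparison but not in the first, and the interaction test called none of them. The Aldoa call was lost without a count filter and without SOD1G93A/Clec7a-KO replicate 2 or Clec7a-KO replicate 1 or 2 (highest edgeR adjusted p = 0.0638). The Hk1 call was lost without SOD1G93A/Clec7a-KO replicate 2 or Clec7a-KO replicate 2 (highest edgeR adjusted p = 0.107).

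The other astrocyte calls were in Slc16a3, Hk2 and Hk3, which were highest in microglia in nTg cords, and Slc2a6. Slc16a3 was at 0.562, 2.41 and 0.943 CPM in the nTg libraries and at 43.2, 26.6 and 2.39 in the SOD1G93A libraries. Slc16a3 was at 2.50, 0, 1.15 and 0.870 in the Clec7a-KO libraries and at 33.8, 51.7, 17.02 and 0 in the SOD1G93A/Clec7a-KO libraries. SOD1G93A replicate 3 and SOD1G93A/Clec7a-KO replicate 4 lay within or next to the range of the other mice. Hk2 was at 4.78, 4.23 and 2.36 CPM in the nTg libraries and at 51.7, 43.3 and 15.1 in the SOD1G93A libraries. Hk2 was at 15.8, 2.52, 6.52 and 7.83 in the Clec7a-KO libraries and at 55.3, 57.6, 37.4 and 19.6 in the SOD1G93A/Clec7a-KO libraries. The log2 changes in Slc16a3 were 4.07 ± 0.88 (SE; edgeR adjusted p = 0.00205) and 4.36 ± 0.78 (SE; edgeR adjusted p = 0.000645). Those in Hk2 were 3.22 ± 0.53 (SE; edgeR adjusted p = 0.000297) and 2.38 ± 0.44 (SE; edgeR adjusted p = 0.000726), and Clec7a-KO replicate 1 in Hk2 lay just above SOD1G93A replicate 3. Hk3 rested on 1 UMI in all nTg astrocytes, 22 in Clec7a-KO, 15 in SOD1G93A and 39 in SOD1G93A/Clec7a-KO, so no fold is given for it, although it passed in both comparisons. Its calls were lost without SOD1G93A replicate 1 in the first (edgeR adjusted p = 0.0506) and without SOD1G93A/Clec7a-KO replicate 2 in the second (edgeR adjusted p = 0.0779). Slc2a6 rested on 10, 6, 17 and 35 UMIs and rose by 1.92 ± 0.66 (SE; edgeR adjusted p = 0.0329) and 3.73 ± 0.64 (SE; edgeR adjusted p = 0.000424), on the log2 scale. The first of these calls was lost in DESeq2 and without SOD1G93A replicate 1 or 2 or any 1 of the nTg replicates (highest adjusted p = 0.123). The 12 microglial markers summed in astrocytes to 215 to 405 CPM in nTg, 405 to 2048 in Clec7a-KO, 1213 to 8903 in SOD1G93A and 2469 to 7865 in SOD1G93A/Clec7a-KO, with 11 of 12 called higher in SOD1G93A and none at 0. SOD1G93A replicate 3, low in Slc16a3, Hk2 and Hk3, had the lowest sum of its group. Their part in these calls was not tested. The immediate early and heat shock genes also moved with the transgene in astrocytes, where 18 of 22 rose in the first comparison (median 2.29) and 11 in the second (median 1.19), where 18.7% and 16.9% of all genes rose, and 0 passed between nTg and Clec7a-KO (median 1.38), although 22 of 22 were higher in Clec7a-KO by estimate and 14 had an unadjusted p under 0.05 (3.73% of all genes). Astrocyte cluster 20 held 11.2 ± 4.85% of all cells in nTg (SD, n = 3), 8.77 ± 3.58% in Clec7a-KO (n = 4), 1.79 ± 0.477% in SOD1G93A (n = 3) and 1.40 ± 0.698% in SOD1G93A/Clec7a-KO (n = 4). Cluster 21 held 1.15 ± 0.191%, 1.03 ± 0.677%, 2.17 ± 1.02% and 1.495 ± 0.893% in the same order. Cluster 20 thus held most astrocytes without the transgene, while with it both clusters held similar shares within their spread.

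**Figure D5:**
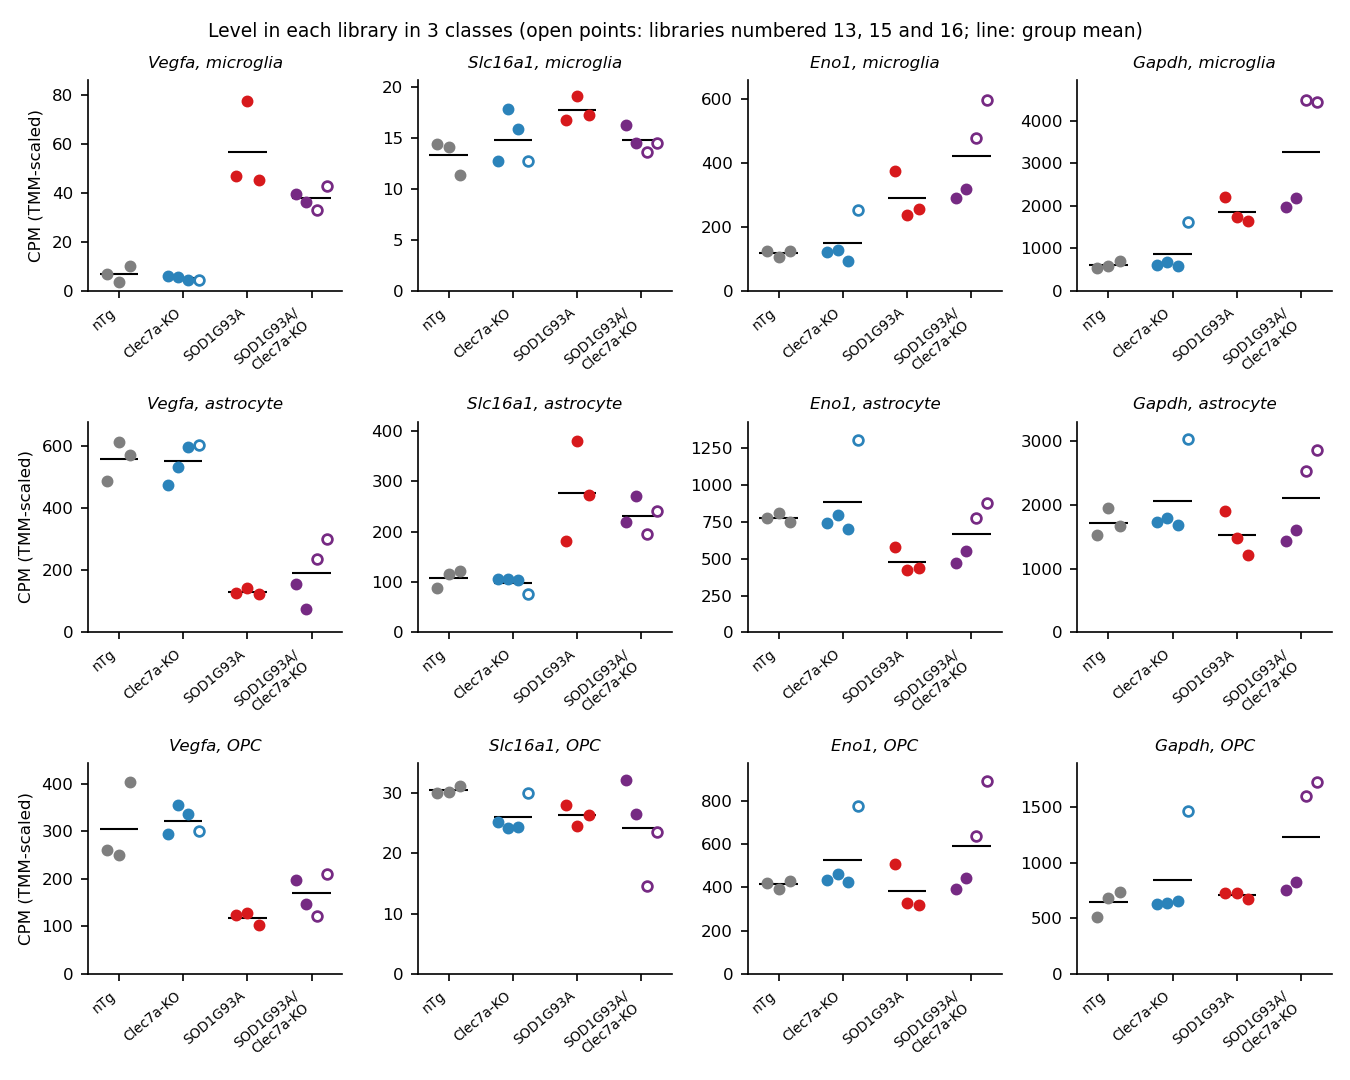
CPM of Vegfa, Slc16a1, Eno1 and Gapdh in each library (points) in microglia, astrocytes and oligodendrocyte precursors (rows), with group means as lines and libraries 13, 15 and 16 as open points. Vegfa is higher in transgenic mice in microglia and lower in both other classes.

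In oligodendrocyte precursors Vegfa was again the member that fell. Vegfa was at 261, 251 and 403 CPM in the nTg libraries and at 124, 128 and 103 in the SOD1G93A libraries. Vegfa was at 294, 355, 337 and 300.2 in the Clec7a-KO libraries and at 197, 147, 122 and 210.1 in the SOD1G93A/Clec7a-KO libraries. The transgenic libraries lay below the rest without overlap. In the respective comparisons it fell by 1.36 ± 0.22 (SE; edgeR adjusted p = 0.00288) and by 0.93 ± 0.19 (SE; edgeR adjusted p = 0.0138) on the log2 scale. It was the only 1 of 32 members tested to pass in the first, where 1.5% of 13243 genes passed (3 members and 12.8% of genes at an unadjusted p under 0.05). The call in the second was lost without Clec7a-KO replicate 2 (edgeR adjusted p = 0.0559). In that comparison Tpi1 passed too, at 182, 158, 170.1 and 204 CPM in Clec7a-KO and 237, 279, 240.2 and 281 in SOD1G93A/Clec7a-KO (0.54 ± 0.14 SE, edgeR adjusted p = 0.0427), where 3.35% of genes passed, and this call was lost under 11 alternatives. These were no count filter, leaving out libraries 13, 15 and 16 together (log2 change 0.59, edgeR adjusted p = 0.0585), and leaving out any 1 of SOD1G93A replicate 2, SOD1G93A/Clec7a-KO replicates 2, 3 and 4, nTg replicates 2 and 3 and Clec7a-KO replicates 1, 2 and 3 (highest edgeR adjusted p over all 11 = 0.136). The microglial markers summed in these cells to 98.9 to 193 CPM in nTg and 292 to 1280.5 in SOD1G93A.

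Few members passed in endothelial, ependymal and mural cells, where few of all genes did. Between nTg and SOD1G93A 0 of 29, 32 and 23 members tested passed in these classes (edgeR; 3, 6 and 1 at an unadjusted p under 0.05), where 0.933%, 0.835% and 0.106% of all genes passed and 6.02%, 7.25% and 4.84% were at an unadjusted p under 0.05. DESeq2 called 0, 1 and 0. The members' log2 differences ran from -0.64 to 1.83, -0.58 to 3.56 and -1.08 to 0.38, and the missed threshold does not show that levels were equal. Between Clec7a-KO and SOD1G93A/Clec7a-KO, Slc16a3 was the single call in endothelial cells (3.15, 2.18, 2.35 and 3.08 against 7.94, 8.19, 11.2 and 4.90 CPM; 1.61 ± 0.31 SE, edgeR adjusted p = 0.0173). It was also the single call in ependymal cells (2.38, 0.288, 0.145 and 0.299 against 4.58, 5.90, 3.89 and 0 CPM; 3.30 ± 0.76 SE, edgeR adjusted p = 0.0380), where 0.933% and 1.36% of genes passed. Mural cells had none in edgeR or DESeq2 (0.317% of genes called; 5 members and 7.16% of genes at an unadjusted p under 0.05). Without libraries 13, 15 and 16 the Slc16a3 changes were as large, at 1.645 in endothelial and 3.32 in ependymal cells, and did not pass (edgeR adjusted p = 0.0999 and 0.0954). The endothelial call was also lost without SOD1G93A/Clec7a-KO replicate 3 or Clec7a-KO replicate 2 or 3, and the ependymal call without any 1 of 7 libraries: SOD1G93A replicate 2, SOD1G93A/Clec7a-KO replicates 1 and 2, nTg replicate 3 and Clec7a-KO replicates 2, 3 and 4. With the replicate number as a block the ependymal call was lost too (log2 change 3.03, edgeR adjusted p = 0.0757). Slc16a3 was highest in microglia in nTg cords, and the microglial markers summed to 132 to 412 and 387 to 1303 CPM in the endothelial cells of these groups and to 243 to 771 and 437 to 1707 in their ependymal cells. Their part in the calls was not tested.

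Loss of Clec7a gave no call among the members in these classes. In oligodendrocyte precursors, endothelial, ependymal and mural cells, 0 members passed in edgeR or DESeq2 between SOD1G93A and SOD1G93A/Clec7a-KO, where 0.00755%, 0.00758%, 0.0261% and 0.0% of genes passed. At an unadjusted p under 0.05 there were 9, 3, 3 and 4 members, and 8.13%, 7.04%, 7.76% and 9.13% of genes. The same held between nTg and Clec7a-KO (0.0151%, 0.0%, 0.0261% and 0.0% of genes called), with 1, 1, 1 and 2 members and 2.95%, 1.95%, 1.90% and 2.35% of genes at an unadjusted p under 0.05. For the interaction 0.0%, 0.00758%, 0.00652% and 0.0% of genes were called, with 0, 1, 1 and 1 members and 1.89%, 1.59%, 2.22% and 3.01% of genes at an unadjusted p under 0.05.

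Whether the classes differ in their change was tested directly, in 1 model over the libraries of a pair of classes with the library as a block. From nTg to SOD1G93A, 21 of 33 members changed differently in microglia than in astrocytes, where 29.3% of 12102 genes did (16 higher and 5 lower in microglia), and 23 of 32 than in oligodendrocyte precursors, where 31.7% of 11956 did (all 23 higher). With each of the SOD1G93A and nTg libraries left out in turn, 17 to 20 and 21 to 22 members passed. From Clec7a-KO to SOD1G93A/Clec7a-KO the counts were 21 (16 higher and 5 lower, 29.6% of genes) and 24 (22 higher and 2 lower, 34.7%). Since the members were chosen with earlier results of these data known, these counts beside all genes test nothing about the list. The change in Vegfa was larger in microglia by 5.13 ± 0.46 (SE; edgeR adjusted p = 1.70e-06) than in astrocytes and by 4.37 ± 0.22 (SE; edgeR adjusted p = 6.66e-10) than in oligodendrocyte precursors, on the log2 scale. That in Eno1 was larger by 1.97 ± 0.21 (SE; edgeR adjusted p = 9.32e-06) and that in Eno2 by 2.59 ± 0.40 (SE; edgeR adjusted p = 0.000256) than in astrocytes. Hif1a differed by 2.01 ± 0.21 (SE; edgeR adjusted p = 9.32e-06) from astrocytes, where it did not pass (-0.27 ± 0.19 SE, edgeR adjusted p = 0.296), and by 1.82 ± 0.14 (SE; edgeR adjusted p = 8.99e-08) from oligodendrocyte precursors. The 5 members whose change from nTg to SOD1G93A was lower in microglia than in astrocytes were Slc2a5 (-3.80 ± 0.70 SE, edgeR adjusted p = 0.00101), Hk2 (-3.19 ± 0.65 SE, edgeR adjusted p = 0.00214), Slc16a1 (-0.91 ± 0.24 SE, edgeR adjusted p = 0.0115), Hk1 (-0.53 ± 0.19 SE, edgeR adjusted p = 0.0474) and Hk3, whose value is not given because it rests on 1 UMI in nTg astrocytes. Hk2, Hk3 and Slc2a5 were highest in microglia in nTg cords, and the microglial markers in astrocytes were higher with the transgene, as given above. Their part in these differences was not tested. Ldha, by contrast, rose in both microglia and astrocytes, and its difference of 0.38 ± 0.24 (SE; edgeR adjusted p = 0.253) did not pass.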

How the data were processed

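The 14 single-cell 3′ RNA libraries of spinal cord were deposited as raw UMI counts per gene and barcode, 1 matrix per library, per the file headers written by software version 3.0.2. Cell Ranger, Seurat, DESeq2 and the build mm10 are named in the submitters' processing notes; their roles, the rule for calling cells and the use of strand in counting are not given in the sources used here. Columns of other samples numbered 0. Of 55335 feature IDs, 54587 were found in GENCODE vM21, from which positions were taken. Processed pseudogenes of glycolytic genes such as Gapdh could split or take reads.

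Barcodes with at least 500 genes, 1000 UMIs and at most 15% mitochondrial UMIs were kept (7127 and 4963 removed), and the top-scoring 2.48 to 9.89% of each library were removed as doublets (6784; simulation with scanpy 1.11.5, 0.8% per 1000 barcodes, 2 simulated doublets per cell). Cells were clustered on 2000 variable genes (30 components, 15 neighbours, Leiden resolution 1.0; igraph 0.11.9) and clusters were named where at least 3 markers of a class were detected, their log2 fold was at least 1 and no second class reached 5.0; a cluster of low depth with no marker among its top genes stayed unnamed. The naming threshold of 5.0 and the use of 2 gene rankings were set after the data were seen. Counts were summed per library and class (at least 20 cells) and tested in edgeR 4.0.16 (R 4.3.3; quasi-likelihood test, TMM, filterByExpr, all 4 groups in 1 fit, Benjamini-Hochberg adjustment over all genes, threshold 0.05). The test of microglia against another class kept the library as a block and was added after the data were seen, as were the alternatives without libraries 13, 15 and 16 and without microglial clusters 3 and 7. Scripts were tested on simulated data.

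The members and gene lists were chosen with earlier results of these data known. Values per library are given for members that passed (at most the 12 largest changes per comparison and class, microglia first) and for Hif1a, Slc2a3, Slc2a5, Hk2, Pkm and Ldha; of other pathway genes at most the 4 largest changes in each direction are named. The labels number replicates without saying that they are separate animals, so p-values measure the spread between these libraries. UMI intervals were not computed, and low values carry counting error. Alternatives were DESeq2 1.42.0, its size factors, no count filter, a replicate block, each library left out, covariates and cell filters. Replicate numbers were not taken to pair the libraries: of 19 correlations of deviations between equal numbers per class, 6 (mural cells) to 15 (endothelial cells) were over 0.1 and in no class all; in microglia they ran from -0.18 to 0.38, with 9 over 0.1.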

Additional observations from a re-analysis of the deposited data

Results flagged for a closer look

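In groups of 4 libraries, a value was looked at again where its gap to the nearest other library took more of the group's whole range than Dixon's 95% critical value for 4 samples allows. This was run on 104 groups of called or named members and met by 13, and chance alone meets it in about 1 group in 20. Most cases were Clec7a-KO replicate 4, library 16. In its microglia the values were 1613 CPM for Gapdh (595 to 675 in the other 3), 414 CPM for Ldha (174 to 191 in the other 3), 492 CPM for Ldhb (284 to 298 in the other 3), 398 CPM for Pkm (174 to 204 in the other 3), 357 CPM for Aldoa (180.1 to 199.6 in the other 3), 225 CPM for Gpi1 (113 to 125 in the other 3) and 76.9 CPM for Slc16a3 (35.1 to 42.2 in the other 3). In its astrocytes they were 1307 CPM for Eno1 (701 to 801 in the other 3) and, on the low side, 76.5 CPM for Slc16a1 (104 to 105 in the other 3). Clec7a-KO replicate 1 stood high in microglia with 100.2 CPM for Aldoc (30.9 to 39.7 in the other 3) and 8.54 CPM for Epas1 (3.77 to 4.45 in the other 3), and in ependymal cells with 2.38 CPM for Slc16a3 (0.145 to 0.299 in the other 3). SOD1G93A/Clec7a-KO replicate 1 stood high among its group in microglial Slc2a5, at 31.9 CPM, where the other 3 lay between 10.1 and 13.8.

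The change from nTg to SOD1G93A differed between microglia and another class, by the test of the difference itself and with opposite directions that each passed, in 3 members. The log2 change was larger in microglia than in astrocytes by 5.13 for Vegfa, 2.59 for Eno2 and 1.97 for Eno1, and larger than in oligodendrocyte precursors by 4.37 for Vegfa. The astrocyte calls of Eno1 and Eno2 on which the opposite directions rest were lost under 11 and 5 alternatives, and the microglial call of Eno1 under 1.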

How the results depend on the processing

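No member that passed reversed its direction under any alternative run, which does not cover members that did not pass. In microglia the count of members called ran from 22 to 27 (nTg to SOD1G93A, 24 with all libraries) and from 25 to 27 (Clec7a-KO to SOD1G93A/Clec7a-KO, 26) with each library left out, and the comparisons for loss of Clec7a and the interaction stayed at 0 members there under every alternative. In astrocytes the leave-one-out counts ran from 6 to 11 and from 9 to 16, in oligodendrocyte precursors from 0 to 6 for Clec7a-KO to SOD1G93A/Clec7a-KO, lowest without Clec7a-KO replicate 2 and highest without replicate 4. For the same comparison they ran from 0 to 1 in endothelial and from 0 to 1 in ependymal cells, and from 0 to 1 in ependymal cells for nTg to SOD1G93A, with the 1 call made without Clec7a-KO replicate 1. Without a filter on low counts, 3 members passed in astrocytes for nTg to Clec7a-KO, 1 in oligodendrocyte precursors for SOD1G93A to SOD1G93A/Clec7a-KO and 1 in ependymal cells for nTg to SOD1G93A. For Clec7a-KO to SOD1G93A/Clec7a-KO that setting gave 4 in oligodendrocyte precursors, 3 in endothelial, 2 in mural and 3 in ependymal cells; it tests more members, and the cause was not tested further. DESeq2 gave 5 in oligodendrocyte precursors and 2 in endothelial cells for that comparison, and 1 in ependymal cells for nTg to SOD1G93A. Without libraries 13, 15 and 16 the endothelial and ependymal counts for Clec7a-KO to SOD1G93A/Clec7a-KO were 0 and 0, where 0.53% and 1.16% of all genes passed. The causes were not tested. Shares of all genes called are not given for the fits with a library left out, without the filter or in DESeq2. Those counts therefore do not show whether members gained or lost calls more than other genes did.

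The labels give the groups the same replicate numbers, which were not taken to pair the libraries. With the number as a replicate block, 29 and 26 members passed in microglia in the comparisons with the transgene, where 38.6% and 52.1% of all genes did (33.4% and 47.0% without the block). For Clec7a-KO to SOD1G93A/Clec7a-KO 5 passed in oligodendrocyte precursors, 2 in endothelial and 0 in ependymal cells. In these classes 6.33%, 1.45% and 1.47% of all genes passed with the block (3.35%, 0.933% and 1.36% without it). Single calls lost in microglia were Epas1 (11 alternatives), Ldha (5, among them the Xist covariate) and Eno1 (1) for nTg to SOD1G93A, and Hk3 (7), Aldoc (1) and Eno2 (1) for the other. In astrocytes Eno1 (11), Pgk1 (9) and Slc2a6 (6) lost theirs most often for nTg to SOD1G93A, and in oligodendrocyte precursors Tpi1 lost its call under 11. Counts of lost calls are out of 26 alternatives in microglia and 19 in the other classes, so they cannot be compared directly between them. Few UMIs limit Hk3, Slc2a6 and Slc16a3 outside microglia.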
